A study of Cricetiscus sungorus with 12 samples.

Results

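The CLK and SRPK kinases are 6 genes, Clk1 (mouse GeneID 12747), Clk2 (12748), Clk3 (102414), Clk4 (12750), Srpk1 (20815) and Srpk2 (20817), and they were taken by their GeneIDs from the 17191 GeneIDs listed for the hypothalamus of Djungarian hamsters. All 6 were listed in every sample and passed the filter on low counts in each comparison. The family was chosen by its role in splicing with results of these data already known. Differences between torpid and normothermic hamsters, in counts and in length, are taken to be among those results. The values of the kinases in the comparisons of torpid with normothermic hamsters are therefore given as a description. No p is printed for them there. The share or number of GeneIDs past the threshold stands beside each count of kinases past it, and nothing is read from those counts.

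Proteins rich in arginine and serine (SR proteins) choose splice sites in pre-mRNA, and they do so according to how strongly their serines are phosphorylated. The SRPK kinases phosphorylate SR proteins mainly in the cytoplasm and so promote their import into the nucleus, and the CLK kinases add further phosphate within the nucleus and release SR proteins from storage speckles. The activity of the CLK kinases, best known for CLK1 and CLK4, rises as temperature falls within the range of body temperature, which makes alternative splicing responsive to temperature. Clk1 and Clk4 pre-mRNAs are themselves spliced into several forms, among them forms that skip a coding exon or retain introns.

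Polyadenylated RNA was sequenced from the hypothalamus of 12 adult hamsters of the Ulm University colony, all killed at Zeitgeber-time (ZT) 4. The LP-NT group (n = 4, 2 males and 2 females) stayed in long photoperiod with 16 h of light and was normothermic. The SP-NT group (n = 4, 2 males and 2 females as labelled) was adapted to short photoperiod with 8 h of light and was normothermic on a day without torpor, and the SP-HT group (n = 4, 3 males and 1 female) shared that photoperiod and was hypothermic in spontaneous daily torpor. No drug or genetic change set the groups apart, but only the short-photoperiod hamsters carried temperature transmitters, so that implantation and photoperiod cannot be told apart in the photoperiod comparison. Each hamster gave 1 sample, and low body temperature and torpor cannot be told apart because they came together in SP-HT.

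Expected counts per sample summed to between 20204979 and 24186918, and the 4 SP-HT samples reached from 20204979 to 23018123 against 22860110 to 24186918 in SP-NT. Normalized counts are given as CPM, counts scaled to the total of each sample with the TMM correction over all 12 samples, where 1 count was worth between 0.0413 and 0.0495 CPM before that correction. Levels of different genes are compared in TPM, which divide by the length of a gene's transcripts. SP-NT replicate 19, labelled male, held 0 counts of 2 GeneIDs, picked after their values were seen, that had between 979 and 1699 and between 342 and 462 counts in the 6 other males and 2 to 5 and 0 counts in the 5 females, and the log2(FC) of the kinases and the sums over them are therefore also given without it. LP-NT replicate 01 stood apart in Clk1, and the pairs of hamsters that held it also differed most among all pairs within a group, as given below. The log2(FC) of counts of Clk1 and Clk4 against LP-NT are also given without it.

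A GeneID joins every assembled hamster transcript whose best protein hit was that mouse gene, so its counts can hold several isoforms, precursors or close copies. The 6 records joined 9 transcripts for Clk1, 8 for Clk2, 14 for Clk3, 25 for Clk4, 22 for Srpk1 and 11 for Srpk2, against a median of 6 over all GeneIDs. The assembly placed Clk1 and Clk4 in separate Trinity genes, its finer units, but 7 of the 9 Clk1 transcripts and 9 of the 25 Clk4 transcripts lay in 1 common component, the coarser unit of transcripts linked by sequence. All 8 Clk2 transcripts lay in the same Trinity gene as transcripts of a record without a name here, GeneID 105943584, which joined 10 transcripts and had a mean of 252.9 counts. Of the 22 Srpk1 transcripts, 4 lay in components shared with 3 other GeneIDs that had mean counts between 30986.9 and 46912.9, and 2 of these 4 were in a shared Trinity gene. A single Clk4 transcript shared a Trinity gene with a further GeneID with a mean of 5423.9 counts, and Clk3 and Srpk2 shared no component. How reads were split within these groups of records is not known here. Such sharing was common, as 44.9% of GeneIDs shared a component with another GeneID.

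In level per length, the 6 kinases spanned from 142 TPM for Clk4 to 14.5 TPM for Clk2 in the mean over the 12 hamsters. Srpk2 followed Clk4 with 117 TPM, then Clk1 with 70.6, Clk3 with 42.9 and Srpk1 with 36.3 TPM. Clk4 was above 92.4% of the 17074 GeneIDs with a TPM above 0, and Clk2 was above 44.6% of them. The place of Clk4 rests on its effective length, described below, with a mean of 1219 bases against 3356 for Srpk2. In CPM, Clk4 had a mean of 63.1, below Srpk2 with 143 and Clk3 with 77.1. Whether the assembled transcripts are complete was not tested. The pair of neighbours Srpk1 and Clk2 was the only one whose ranges over the 12 hamsters did not overlap, and Clk3 was above Srpk1 in 12 of 12 hamsters although their ranges overlapped. Clk4 was above Srpk2 in all 8 normothermic hamsters and in 0 of the 4 torpid ones. Srpk2 exceeded Clk1 in 11 of 12 hamsters, with the exception in LP-NT, and Clk1 exceeded Clk3 in 11 of 12, with the exception in SP-HT.

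**Figure D1:**
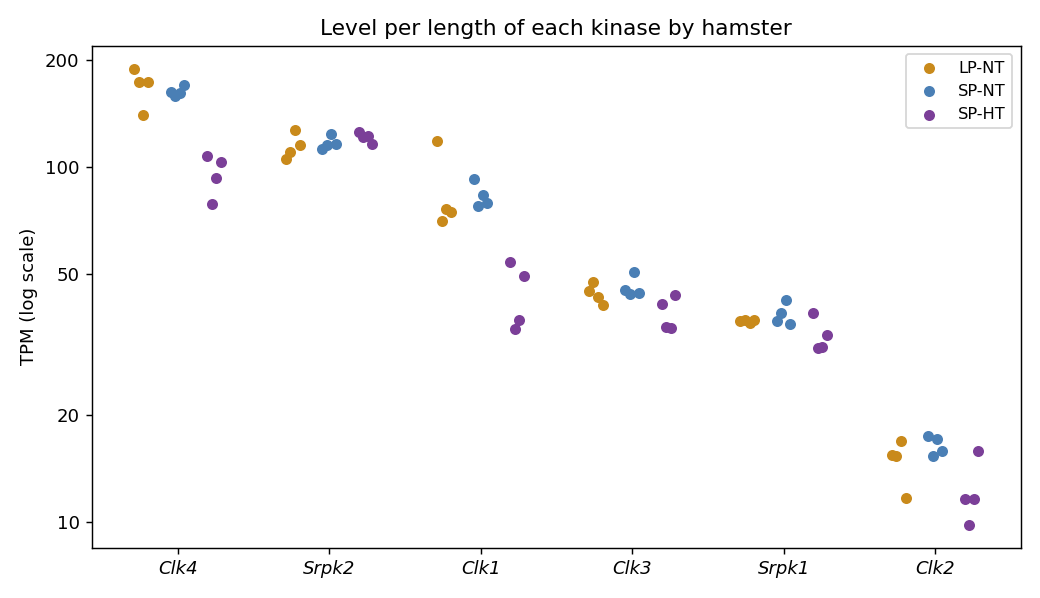
Level per length in TPM on a log scale (vertical axis) of the 6 kinases, ordered by their mean (horizontal axis), with 1 point per hamster and 4 hamsters a group, LP-NT at the left, SP-NT in the middle and SP-HT at the right. Clk4 sits between 140 and 189 TPM in the 8 normothermic hamsters and between 78.7 and 107 TPM in the 4 torpid ones, below every Srpk2 value of that group.

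The torpor comparison asks what differs between SP-HT and SP-NT at the same photoperiod and time of day. By the paper's record of these hamsters, the oldest and those with the most torpor bouts were in SP-HT, although the ranges overlapped. Age and earlier torpor bouts were not entered in the fits, and their part in the differences was not tested. Clk1 and Clk4, the pair of nuclear kinases best known for their response to temperature, were lower in torpid hamsters, with Clk1 2.37-fold and Clk4 1.77-fold below SP-NT. Clk2, Clk3 and Srpk1 were lower by smaller amounts and Srpk2 was higher by 7.64%, none of them past an adjusted p of 0.05 in edgeR's quasi-likelihood fit. Past that threshold were 2 of 6 kinases, both lower, beside 2.4% of the 16195 GeneIDs tested in either direction and 1.9% in the lower direction. The comparison is taken to be part of the choice of the family, so this count is no support for a difference.

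Clk1 had 36.9, 24.6, 25.4 and 31.1 CPM in SP-HT replicates 02, 10, 26 and 33. In SP-NT it had 76.5, 63.7, 72.2 and 67 CPM in replicates 19, 36, 37 and 38. The highest torpid hamster was thus far below the lowest normothermic one of the same photoperiod, and the groups did not overlap. Their means were 29.5 ± 5.73 CPM (SD, n = 4) and 69.8 ± 5.61 CPM (SD, n = 4), with a log2(FC) of -1.24 ± 0.121 (SE). Of 12915 GeneIDs with a mean of at least 50 counts, 12 had a lower log2(FC). Without SP-NT replicate 19, the highest of its group, the log2(FC) was -1.19, and over all alternative settings it lay between -1.37 and -0.88.

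Clk4 had 48, 37.2, 37.4 and 44.8 CPM in SP-HT replicates 02, 10, 26 and 33 and 77.8, 69, 76.3 and 73 CPM in SP-NT replicates 19, 36, 37 and 38. Again the groups did not overlap. The means were 41.8 ± 5.42 CPM in SP-HT and 74 ± 3.91 CPM in SP-NT (SD, n = 4 each), and the log2(FC) was -0.82 ± 0.087 (SE), or -0.80 without SP-NT replicate 19. Of the 12915 GeneIDs, 50 had a lower log2(FC) than Clk4. Because of their common component, Clk1 and Clk4 were also counted as 1 record, an alternative added after seeing the data, and this record had a log2(FC) of -1.01 ± 0.098 (SE).

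In CPM, the hamsters of short photoperiod kept the same order in both genes, while those of LP-NT did not. In SP-HT, replicate 02 was highest and replicate 10 lowest in Clk1 and in Clk4, with 33 above 26 between them. In SP-NT, the order 19, 37, 38 and 36 from high to low was shared by Clk1, Clk2 and Clk4. In LP-NT, replicate 01 was highest in Clk1 and in Clk4, but replicate 05 was lowest in Clk1 and replicate 03 in Clk4. The order of SP-NT was not shared in TPM, where replicate 38 was highest in Clk4 at 170 TPM and replicate 19 in Clk1 at 92.7 TPM. In CPM, Clk1 was nevertheless lowered by more than Clk4. The ratio of Clk1 to Clk4 in CPM was 0.943 ± 0.0293 in SP-NT and 0.702 ± 0.0472 in SP-HT (SD, n = 4 each). Its ranges ran from 0.918 to 0.983 and from 0.663 to 0.769. Without SP-NT replicate 19 the SP-NT ratio was 0.929 ± 0.015 (SD, n = 3). Order and ratio both depend on how reads were split between the records, and in CPM the ratio also depends on their effective lengths. In TPM the ranges of the ratio overlapped, as given below.

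**Figure D2:**
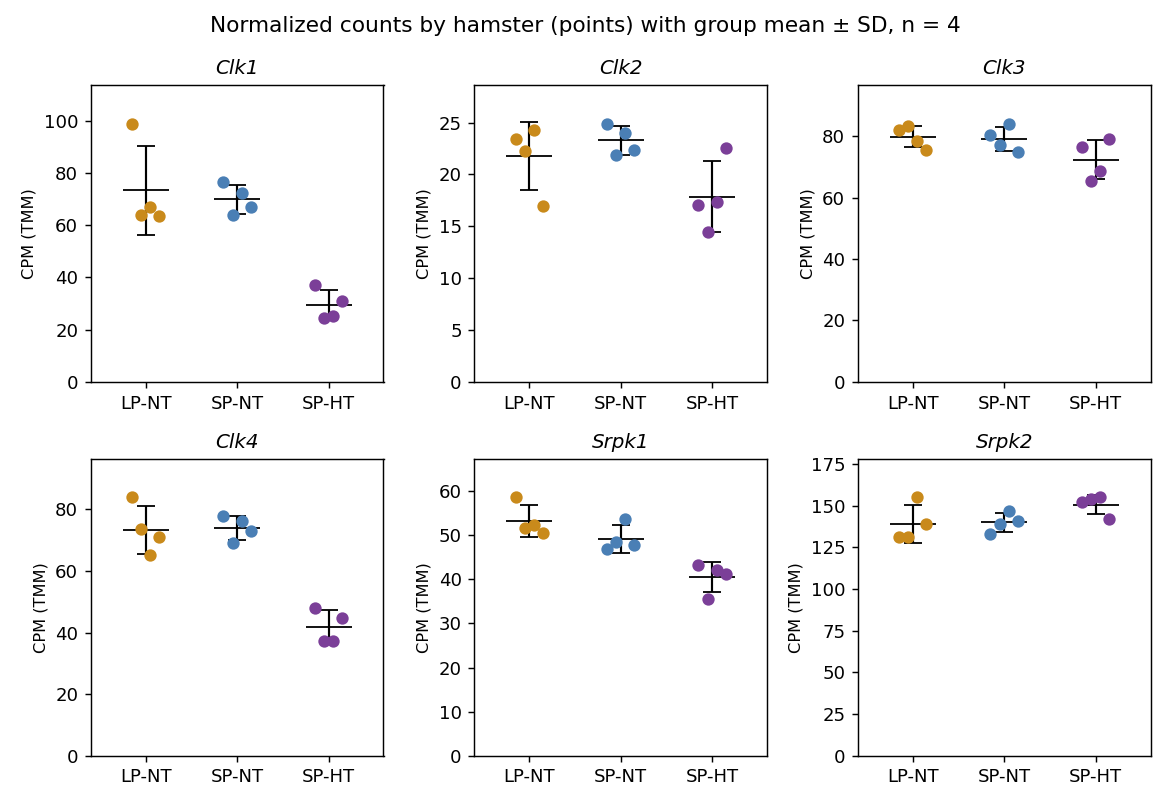
Normalized counts in CPM (vertical axes, from 0) of each kinase by group (horizontal axes), with 1 point per hamster and bars for the mean ± SD (n = 4). For Clk1, Clk4 and Srpk1 every SP-HT point lies below every SP-NT point, and LP-NT replicate 01 stands at 98.8 CPM for Clk1 while the other LP-NT hamsters lie at 63.6 to 67 CPM.

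Clk2 and Clk3 were not past the threshold in edgeR. Clk2, a nuclear kinase also known from hepatic insulin signalling, had 17.1, 14.5, 17.3 and 22.6 CPM in SP-HT replicates 02, 10, 26 and 33 and between 21.9 and 24.9 CPM in SP-NT. SP-HT replicate 33 lay within the SP-NT range and the other torpid hamsters below it, so that the groups overlapped through 1 hamster. The log2(FC) was -0.38 ± 0.120 (SE). Leaving out SP-NT replicate 19 gave -0.35 and leaving out SP-HT replicate 33 gave -0.51, and it was -0.33 when counted together with GeneID 105943584, an alternative added after seeing the data. That neighbouring record alone had a log2(FC) of -0.24.

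Clk3, the CLK kinase known for its abundance in testis, had between 65.3 and 79.2 CPM in SP-HT and between 74.8 and 84.1 CPM in SP-NT. These ranges overlapped, with a log2(FC) of -0.13 ± 0.069 (SE), or -0.12 without SP-NT replicate 19. In TPM, however, the groups were separate, with 35.1 to 43.5 TPM in SP-HT and 43.9 to 50.5 TPM in SP-NT, and the mean difference on the log2 scale was -0.24. Beside the counts, -0.06 of that difference came from length and -0.05 from the scaling to TPM, which is shared by all genes. The effective length was 5041 ± 102 bases in torpor against 4833 ± 117 bases in SP-NT (SD, n = 4 each). With CPM divided by length in kilobases alone, the groups still overlapped, at 13.3 to 15.7 in SP-HT and 15.6 to 17.9 in SP-NT.

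Srpk1, a cytoplasmic SR protein kinase, had 43.2, 35.5, 42.2 and 41.2 CPM in SP-HT replicates 02, 10, 26 and 33 and 46.8, 48.4, 53.8 and 47.7 CPM in SP-NT replicates 19, 36, 37 and 38. All torpid hamsters were below all normothermic ones of the same photoperiod. The log2(FC) was -0.28 ± 0.076 (SE), or -0.30 without SP-NT replicate 19. DESeq2 with default settings called 3 of 6 kinases, Srpk1 in addition to Clk1 and Clk4, beside 6.28% of the GeneIDs tested. With effective lengths in DESeq2, Srpk1 was not called and its log2(FC) was -0.15. With the effective length entered as an offset the log2(FC) was -0.16, and in TPM the groups overlapped, with 30.9 to 38.7 TPM in SP-HT and 36.1 to 42.1 TPM in SP-NT.

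Srpk2, the SR protein kinase most prominent in the nervous system, had 152, 154, 155 and 142 CPM in SP-HT replicates 02, 10, 26 and 33 and 133, 139, 147 and 141 CPM in SP-NT replicates 19, 36, 37 and 38. It was the only one of the 6 whose log2(FC) was above 0, at 0.11 ± 0.047 (SE), which was not past the threshold. SP-HT replicate 33 lay within the SP-NT range. In TPM the log2 difference was 0.05, and without SP-NT replicate 19, the lowest of its group, the log2(FC) of counts was 0.08.

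Of the 6 kinases, 3 had groups that did not overlap in CPM, all with SP-HT below SP-NT, beside 7.39% of all GeneIDs tested in that direction and 4.74% in the other. In TPM it was 3 of 6, with Clk3 in place of Srpk1, beside 8.1% of GeneIDs lower in SP-HT. A lower count in whole tissue does not tell fewer cells with these transcripts from less transcript per cell. The SP-HT samples were also the shallower ones on the whole, as given above, and the part of depth in the differences was not tested.

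**Figure D3:**
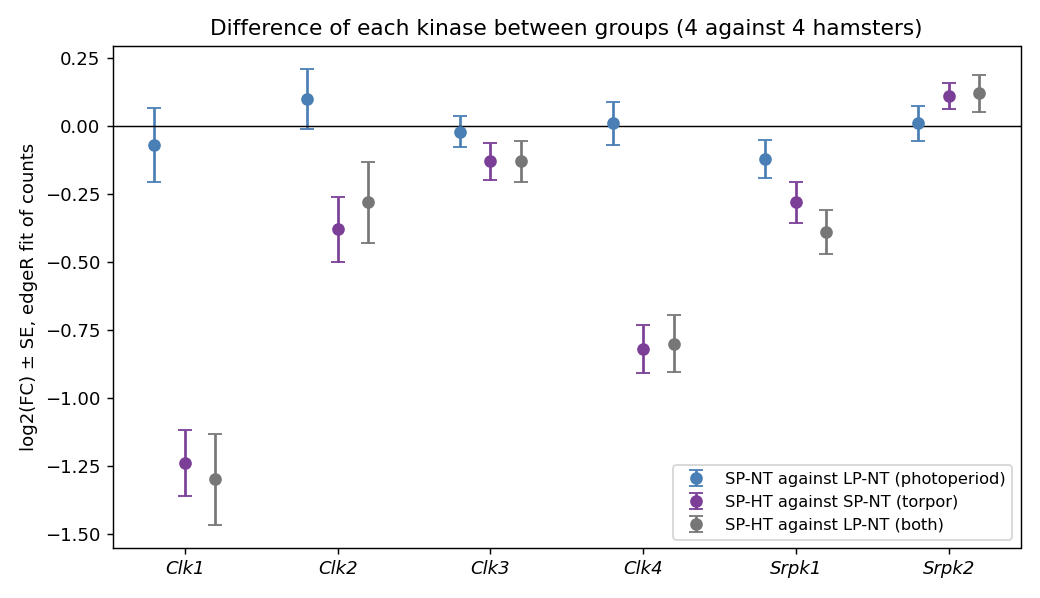
Log2(FC) of the counts of each kinase with its SE (vertical axis) from edgeR's fit, in blue for photoperiod (SP-NT against LP-NT), in purple for torpor (SP-HT against SP-NT) and in grey for SP-HT against LP-NT, with 4 hamsters per group. Clk1 lies at -1.24 and Clk4 at -0.82 for SP-HT against SP-NT, while for SP-NT against LP-NT all 6 kinases lie between -0.12 and 0.10.

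The balance within the family differed along with these levels. The 4 CLK kinases together reached 308 ± 9.95 TPM in SP-NT and 190 ± 26.8 TPM in SP-HT, and the 2 SRPK kinases together 155 ± 7.89 TPM and 154 ± 6.26 TPM (SD, n = 4 each). The CLK sum lay between 159 and 214 TPM in the torpid hamsters and between 295 and 318 TPM in SP-NT, whereas the ranges of the SRPK sum overlapped. Without SP-NT replicate 19 the SP-NT sums were 305 ± 9.42 and 157 ± 8.05 TPM (SD, n = 3). Clk1 and Clk4 made up 79.8 ± 1.03% of the CLK sum in SP-NT and 73.1 ± 1.74% in SP-HT, and the share of Clk3 was 14.9 ± 0.941% and 20.5 ± 1.31%, with 79.6 ± 1.19% and 15.1 ± 1% in SP-NT without replicate 19 (SD, n = 3). Srpk2 exceeded Srpk1 3.03 ± 0.118 times in SP-NT and 3.63 ± 0.349 times in SP-HT. LP-NT resembled SP-NT in its values, with 312 ± 38.5 TPM for the CLK sum, 151 ± 9.15 TPM for the SRPK sum and 81 ± 2.5% for the share of Clk1 and Clk4 (SD, n = 4 each). These LP-NT values include replicate 01, the highest of its group at 367 TPM for the CLK sum and 83.6% for that share.

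The effective length of a GeneID is the mean length of its transcripts, weighted by their estimated abundance and reduced for fragment size, so it moves with the mix of transcripts. Clk1 had 1850, 1881, 1808 and 1755 bases in SP-HT replicates 02, 10, 26 and 33 while SP-NT replicates 19, 36, 37 and 38 had 2292, 2291, 2443 and 2384 bases. The shortest value of SP-NT was above the longest of SP-HT, and the LP-NT hamsters, with 2191 to 2516 bases, were above SP-HT as well. The difference on the log2 scale was -0.37 ± 0.030 (SE), a change of length of -22.5%. Past the threshold of limma's fit on log2 effective length was 1 of 6 kinases, Clk1, beside 0.122% of the 12288 GeneIDs that joined several transcripts and reached a mean of 50 counts. That call was lost without any 1 of the 4 SP-HT hamsters and without SP-NT replicate 37. The difference was -0.38 without SP-NT replicate 19 and lay between -0.38 and -0.35 when single hamsters were left out. In size, 123 of the 12288 GeneIDs had a lower difference than Clk1.

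The groups of the 5 other kinases overlapped in length. Clk4 had 1271 ± 69.5 bases in SP-NT and 1187 ± 87.3 in torpor, and Srpk1 had 3578 ± 106 and 3270 ± 276 bases (SD, n = 4 each). Clk2 and Srpk2 differed by less than 1% in either direction, at -0.421% and 0.068%. Groups without overlap and a shorter length in SP-HT were found for 1 of 6 kinases and for 6.01% of the 12288 GeneIDs.

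**Figure D4:**
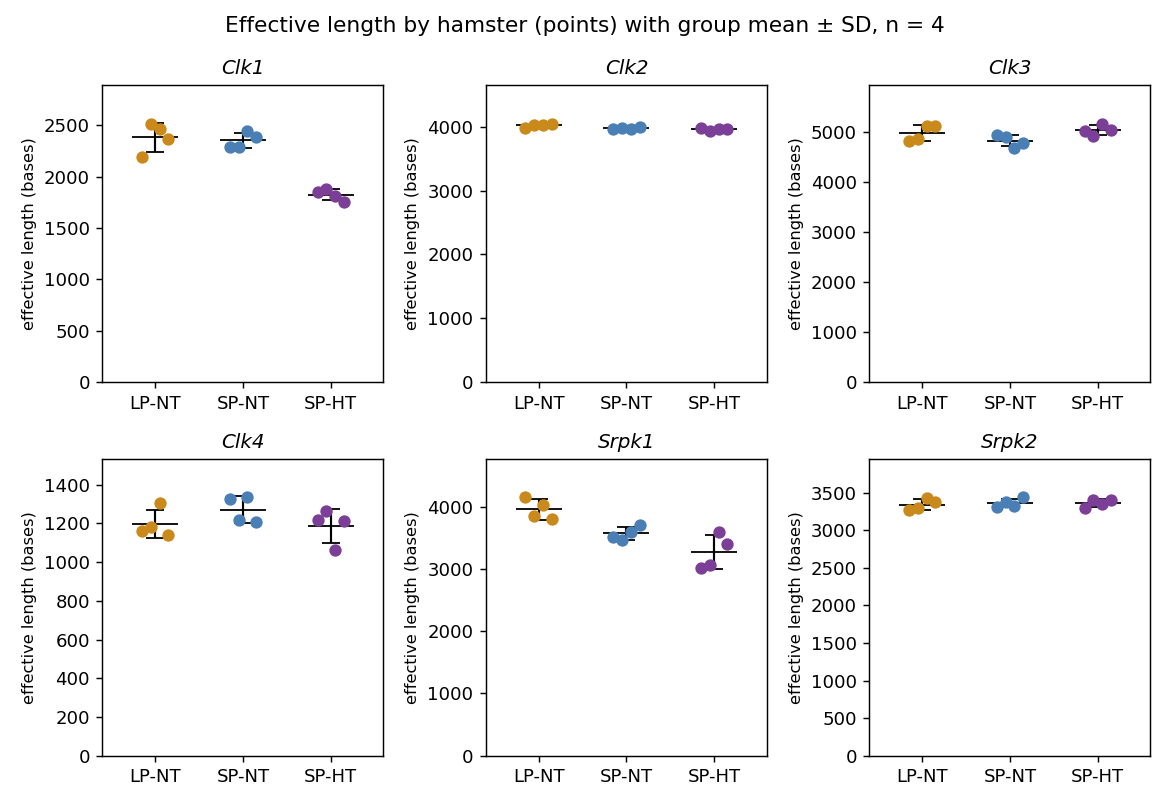
Effective length in bases (vertical axes, from 0) of each kinase by group (horizontal axes), with 1 point per hamster and bars for the mean ± SD (n = 4). The Clk1 points of SP-HT lie between 1755 and 1881 bases, below all 8 normothermic hamsters, and the Srpk1 points of LP-NT lie between 3799 and 4152 bases, above those of SP-NT and SP-HT.

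A shorter length changes how a drop in counts appears per length. For Clk1 the mean log2 difference between SP-HT and SP-NT was -1.26 in CPM, to which the shorter effective length added 0.37 and the scaling to TPM -0.05, which left -0.94 in TPM. The level of Clk1 in torpor was hence 2.39-fold lower in mean log2 CPM and 1.92-fold lower in TPM. For Clk4 the same steps were -0.83, 0.10 and -0.05, and the level was 1.78-fold lower in CPM and 1.72-fold lower in TPM. With the length taken into account, Clk1 and Clk4 were closer to each other, and the ratio of Clk1 to Clk4 in TPM was 0.510 ± 0.0449 in SP-NT and 0.457 ± 0.0464 in SP-HT (SD, n = 4 each), with overlapping ranges of 0.465 to 0.569 and 0.398 to 0.505.

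**Figure D5:**
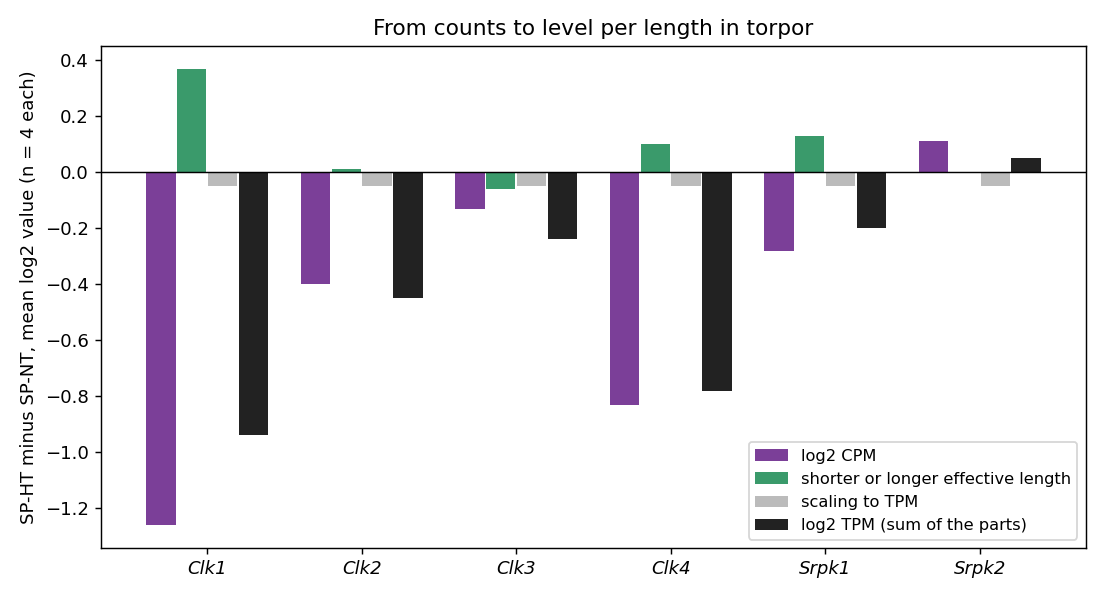
Mean log2 difference between SP-HT and SP-NT (vertical axis, n = 4 each) of every kinase (horizontal axis), with bars for the difference in CPM, the part added by effective length, the part added by scaling to TPM, and their sum, the difference in TPM. For Clk1 the length bar of 0.37 stands against a CPM bar of -1.26, and for Clk2 and Srpk2 the length bar is close to 0.

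The photoperiod comparison asks what differs between SP-NT and LP-NT in normothermic hamsters, and it did not include the torpid hamsters. Its SP-NT hamsters also belong to the torpor comparison, which is taken to be part of the choice of the family. The p-values given here are therefore not independent of that choice. No difference in any of the 6 kinases was detected in counts. By edgeR's quasi-likelihood test, the adjusted p lay between 0.913 for Srpk1 and 0.984 for Clk4 and Srpk2, 0 of 6 were past the threshold and 0 of 6 had an unadjusted p below 0.05 in edgeR or in DESeq2 with default settings. Among 16199 GeneIDs, 0.037% were past the threshold in edgeR and 0.204% in DESeq2. At an unadjusted p below 0.05 were 784 of these GeneIDs in edgeR and 751 in DESeq2. In CPM, all 6 kinases had overlapping groups, beside 1.72% of GeneIDs without overlap in each direction.

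Clk1 had 98.8, 63.9, 67 and 63.6 CPM in LP-NT replicates 01, 02, 03 and 05, a mean of 73.3 ± 17.1 CPM (SD, n = 4) that rested on replicate 01. Without it the mean was 64.8 ± 1.87 CPM (SD, n = 3). The log2(FC) of SP-NT against LP-NT was -0.07, with a 95% interval from -0.37 to 0.23, and it was 0.11 without LP-NT replicate 01, so that its sign depended on that hamster. Clk4 had 83.9, 73.7, 65.2 and 70.9 CPM in LP-NT replicates 01, 02, 03 and 05, again with replicate 01 highest. Its log2(FC) was 0.01 with an interval from -0.17 to 0.19, or 0.08 without LP-NT replicate 01.

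Clk2 had 21.8 ± 3.29 CPM in LP-NT and 23.3 ± 1.41 CPM in SP-NT, and Clk3 had 79.9 ± 3.51 and 79.1 ± 4.02 CPM (SD, n = 4 each). The log2(FC) intervals ran from -0.15 to 0.34 for Clk2 and from -0.14 to 0.11 for Clk3. Among the SRPK kinases, Srpk1 had 53.3 ± 3.61 CPM in LP-NT and 49.2 ± 3.17 CPM in SP-NT, with an interval from -0.27 to 0.04. Srpk2 had 139 ± 11.4 and 140 ± 5.53 CPM, with an interval from -0.14 to 0.15. Without SP-NT replicate 19 the log2(FC) for photoperiod was -0.12 for Clk1, 0.06 for Clk2, -0.02 for Clk3, -0.01 for Clk4, -0.09 for Srpk1 and 0.03 for Srpk2, and 0 of 6 were past the threshold. The narrowest intervals, those of Clk3 and Srpk2, thus left room for a log2(FC) of at most 0.15 in size.

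Among CPM, TPM and effective length, the length of Srpk1 was the 1 measure of a kinase in which the photoperiod groups did not overlap. It was 4152, 3854, 4029 and 3799 bases in LP-NT replicates 01, 02, 03 and 05 while SP-NT replicates 19, 36, 37 and 38 had 3521, 3474, 3602 and 3715 bases. The SP-NT mean differed by -9.59%, a log2 difference of -0.15 ± 0.034 (SE), or -0.14 without SP-NT replicate 19. Limma's fit gave an unadjusted p of 0.0038 and an adjusted p of 1 over 12317 GeneIDs, so the difference did not pass the threshold, and in that fit 0 GeneIDs, or 0%, did, with 559 at an unadjusted p below 0.05. Groups without overlap and shorter in SP-NT made up 1.26% of these GeneIDs. In TPM, Srpk1 had 36.9 ± 0.345 in LP-NT and 38.5 ± 2.68 in SP-NT (SD, n = 4 each), with overlapping ranges.

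SP-HT was also set against LP-NT, a comparison in which photoperiod, implantation and torpor differ together and which shares its samples with the others. Past the threshold of edgeR were Clk1, Clk4 and Srpk1, 3 of 6, all lower, beside 1.37% of 16157 GeneIDs in either direction and 1.02% in the lower one. The SP-HT samples are taken to be part of the choice of the family, so this count too is no support for a difference. The log2(FC) was -1.30 ± 0.167 (SE) for Clk1, or -1.13 without LP-NT replicate 01, and -0.80 ± 0.105 (SE) for Clk4, or -0.74 without it. For Srpk1 it was -0.39 ± 0.081 (SE), and this call was lost in 15 of 21 alternative settings, among them the omission of any 1 hamster. With effective lengths in the edgeR fit, the Srpk1 log2(FC) was -0.12, and in TPM its groups overlapped. In CPM, the groups of Clk1, Clk4 and Srpk1 did not overlap, beside 6.83% of GeneIDs lower in SP-HT without overlap. The length of Srpk1 was shorter in every SP-HT hamster, at 3020 to 3593 bases, than in every LP-NT hamster, at 3799 to 4152 bases, as was that of Clk1, beside 5.66% of GeneIDs.

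Against LP-NT, Clk2 had a log2(FC) of -0.28 ± 0.149 (SE), Clk3 of -0.13 ± 0.075 and Srpk2 of 0.12 ± 0.069. The effective length of Clk1 was lower by 0.39 ± 0.046 (SE) on the log2 scale in SP-HT, past the threshold beside 0.123% of GeneIDs, a call kept in 1 of 10 alternatives.

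Because males and females were not equally frequent in all groups, the sexes as labelled were compared over the 12 hamsters with group as a covariate. These include the hamsters of the torpor comparison, so the p-values of this test are not independent of the choice of the family either. The log2(FC) of males against females lay between -0.05 for Clk3 and 0.14 for Clk2, and the lowest adjusted p of edgeR's quasi-likelihood test was 0.860. The widest 95% interval, that of Clk1, ran from -0.24 to 0.31. Of 16380 GeneIDs, 0 were past the threshold with the labels as given, a share of 0%, with 748 at an unadjusted p below 0.05, and DESeq2 called 13. Without SP-NT replicate 19, edgeR called 9 GeneIDs and again 0 of the 6 kinases. With sex as labelled as a covariate, the torpor log2(FC) was -1.22 for Clk1 and -0.81 for Clk4. That fit counts SP-NT replicate 19 as male. Whether this label is right was not tested, and if it is wrong the fit does not adjust for sex properly.

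Spread between hamsters of a group was also unlike among the 6. The biological coefficient of variation in the torpor fit was 12.2% for Clk1 and for Clk2, 9.11% for Clk4, 8.22% for Srpk1, 7.54% for Clk3 and 5.52% for Srpk2, beside a median of 8.76% over GeneIDs with a mean of at least 50 counts. Only 6.0% of these GeneIDs varied as little as Srpk2 or less, while 75.0% varied as little as Clk1 or less.

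For each kinase, the 3 GeneIDs with the most similar log2 CPM over the 12 hamsters were taken from 12903 GeneIDs with a mean of at least 50 counts. Pearson's r, a description without a test over samples that share their normalization and the difference between torpid and normothermic hamsters, was between 0.972 and 0.983 for Clk1, between 0.969 and 0.974 for Clk4 and between 0.947 and 0.979 for Srpk1. It was between 0.905 and 0.938 for the lists of Clk2, Clk3 and Srpk2. The most similar record to Clk1 was GeneID 216805 (r = 0.983, torpor log2(FC) -0.36), and that to Clk4 was GeneID 70650 (r = 0.974, torpor log2(FC) -0.34), which carry no name in the files. The choice by likeness over samples that include SP-HT fixes the direction of these records in torpor. Of the 3 GeneIDs of Clk1 and the 3 of Clk4, 1 was in both lists. The 3 of Srpk2 had a torpor log2(FC) between 0.28 and 0.37.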

How the data were processed

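Hypothalamic polyadenylated RNA of 12 hamsters was sequenced by the authors, who assembled all reads de novo with Trinity, kept transcripts with a mouse protein (GRCm39) as best blastx hit, grouped them by mouse GeneID and quantified each sample with Bowtie 1.3.0 and RSEM 1.3.1 after FastQC 0.11.9 and Trim Galore 0.6.6. The deposited values are expected counts, not normalized, TPM, and a length and an effective length per GeneID and sample. The library kit keeps strand, and whether mapping used it is not given in the sources used here.

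Counts were rounded, and every GeneID that reached 10 counts in total among the 8 hamsters compared entered the quasi-likelihood test of edgeR 4.0.16 (R 4.3.3) with TMM factors. P-values were adjusted after Benjamini-Hochberg over all GeneIDs tested, and calls were made below an adjusted p of 0.05. DESeq2 1.42.0, the authors' tool, was an alternative. With effective lengths it called 759 GeneIDs for torpor and 32 for photoperiod, the same totals as the study reported. Default settings called 1017 and 33. Log2 effective length was tested with limma 3.58.1 (eBayes with a trend) over GeneIDs that joined several transcripts and reached a mean of 50 counts. TPM alternatives used log2(TPM + 1) or log2(TPM + 0.1). Log2 CPM used a prior count of 2. Groups follow the labels, which name no batch. The edgeR, DESeq2 and limma fits of the 3 pairwise comparisons were checked on simulated data with known changes. Replicates are separate hamsters, and pairs within a group differed beyond counting noise (chi-square divided by degrees of freedom, 6.79 to 37.7). In LP-NT, the pairs that held replicate 01 had 26.8, 28.9 and 37.7, and the pairs without it 9.01, 9.36 and 13.8. The highest value in the other groups was 21.2, in SP-HT. Every LP-NT mean given with n = 4 includes replicate 01.

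The members, and the lists of SR proteins, other splicing regulators and cell type markers, were chosen with earlier results of these data known. The files pair no names with GeneIDs and no table of names was used here, so only the 6 kinases, whose GeneIDs were given, are named, and the lists and a marker check of the tissue were not applied. All 6 members were named by rule, and for each the 3 GeneIDs with the highest Pearson correlation of log2 CPM. No sequences of the kinases were analysed here.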

Additional observations from a re-analysis of the deposited data

Results flagged for a closer look

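LP-NT replicate 01 stood far from the other 3 hamsters of its group in Clk1, with 98.8 CPM against 63.6 to 67 CPM and with 118 TPM against 70.3 to 76.3 TPM. The gap to the nearest other hamster was 0.905 of the group's range in CPM and 0.875 in TPM. These were 2 of 54 groups of 4 values examined, or 3.7%, where chance alone marks about 1 in 20, and both rest on the same hamster and gene. The same hamster was also highest of its group in Clk4 and Srpk1, at 83.9 and 58.6 CPM.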

How the results depend on the processing

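For torpor, the comparison taken to be part of the choice of the family, 2 to 3 kinases were called, beside 104 to 1017 GeneIDs. The third kinase was Clk2 without SP-HT replicate 33, beside 318 of 16118 GeneIDs. In DESeq2 with default settings it was Srpk1, beside 1017 of 16195 GeneIDs. For SP-HT against LP-NT, 1 kinase, Clk4, was called with an effective-length offset in edgeR, beside 102 of 16157 GeneIDs. Clk4 alone was also called in limma on log2(TPM + 1) and on log2(TPM + 0.1), beside 80 and 77 of 16157 GeneIDs. When any 1 hamster was left out, 2 kinases were called, beside 55 to 200 GeneIDs. Effective length called 0 to 1 kinases for torpor without single hamsters, beside 0 to 12 GeneIDs. Against LP-NT it called 0 to 1 kinases without single hamsters, beside 1 to 10 GeneIDs. It called 0 kinases with a minimum mean of 10 counts and 0 with the deposited length, beside 13 and 17 GeneIDs. The level order kept 14 of 15 pairs in SP-HT.

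Signs turned only for small values. For photoperiod, Clk3, Clk4 and Srpk1 were at 0.03, -0.08 and 0.03 with effective lengths in DESeq2 and in edgeR, and at 0.06, -0.04 and 0.06 in both TPM fits, where Clk1 was at 0.001 and 0.0013. Limma voom gave 0.06 for Clk1 and -0.01 for Srpk2. Without single hamsters the log2(FC) lay between -0.13 and 0.11 for Clk1, -0.0039 and 0.16 for Clk2, -0.04 and 0.01 for Clk3, -0.04 and 0.08 for Clk4 and -0.02 and 0.07 for Srpk2. For sex, Srpk2 was at 0.0001 in DESeq2 and 0.02 without SP-NT replicate 19. In length without single hamsters, Srpk2 lay between -0.01 and 0.01 for torpor, -0.002 and 0.02 for photoperiod and -0.001 and 0.02 against LP-NT, Clk1 between -0.06 and 0.01 for photoperiod and Clk4 between -0.04 and 0.04 against LP-NT.

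GeneIDs called for torpor numbered 389 in the reported fit, 1017 and 759 in DESeq2 without and with lengths, 146 with the length offset in edgeR, 116 in limma on log2(TPM + 1), 242 with sex as a covariate and 104 to 318 without single hamsters. For effective length in torpor they numbered 15, and 39 with the deposited length and 0 to 12 without single hamsters. For photoperiod they numbered 6, and 33 and 32 in DESeq2 without and with lengths, and for SP-HT against LP-NT 221, with 55 to 706 over all settings. The fewest counts were those of Clk2, with 300 to 607 per hamster. The causes were not tested. No paired analysis was possible because the groups compared share fewer than 2 replicate numbers, and these numbers name different hamsters.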
